A study of Saccharomyces cerevisiae with 12 samples.

Results

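The mating MAP kinase cascade of budding yeast and the phosphatases that act on it were examined as 10 genes, named for their known roles and found in the files by gene ID. They are STE20 (YHL007C), STE50 (YCL032W), STE5 (YDR103W), STE11 (YLR362W), STE7 (YDL159W), FUS3 (YBL016W), KSS1 (YGR040W), MSG5 (YNL053W), PTP2 (YOR208W) and PTP3 (YER075C). All 10 were among the 7126 genes listed for each library, and all 10 passed the filter on low values. RNA was sequenced in 12 Saccharomyces cerevisiae libraries, in 4 groups of 3 biological replicates. The groups were MATα-playing-a cells (strain LBHY29) given 10 nM α-factor for 2 h, the same strain unstimulated, MATa cells (strain MP 384) given 10 nM α-factor for 2 h, and MATa cells unstimulated. All cultures grew to log phase in YPD with 0.1% BSA at 30 °C. The unstimulated cells were harvested first and α-factor was then added to what was left of the culture, so pheromone and 2 h of further growth cannot be told apart. As its name says, the MATα-playing-a strain is a MATα strain that takes the a role in mating. The labels give no further genotype for either strain, and each strain is represented by a single isolate.

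In a cells, α-factor binds the receptor Ste2 and frees the Gβγ dimer of the coupled G protein. The dimer recruits the scaffold Ste5 to the membrane, where the kinase Ste20 activates the MAP kinase kinase kinase Ste11 with the help of its adaptor Ste50. Ste11 phosphorylates the MAP kinase kinase Ste7, and Ste7 phosphorylates the MAP kinases Fus3 and Kss1, which act on the transcription factor Ste12 and its repressors. Msg5 is a dual-specificity phosphatase that inactivates Fus3, and Ptp2 and Ptp3 are tyrosine phosphatases of MAP kinases. Ste20, Ste50, Ste11 and Kss1 are among those that also serve filamentous growth, and Ste20, Ste50 and Ste11 also feed the osmotic stress pathway.

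Levels are given as FPKM, a read density per kilobase of gene, as the authors scaled it. Libraries of 1 group correlated at r = 0.955 to 0.979 (12 pairs, across genes on log2 values). Summed FPKM was 5374750 to 5415432 in stimulated and 5989653 to 6594019 in unstimulated MATα-playing-a libraries, and 5332586 to 5516177 in stimulated and 6572192 to 6666550 in unstimulated MATa libraries. No table gives reads, and sequencing depth is therefore unknown. The pheromone treatment was visible in every stimulated library: FUS1, a cell fusion gene induced by pheromone, was at 2993 to 3058 FPKM in stimulated and 99.7 to 130 in unstimulated MATα-playing-a libraries, and at 3017 to 3219 in stimulated and 156 to 196 in unstimulated MATa libraries. Within each of the 4 groups, 7 of 8 marker genes of a cells were above 0 in all 3 libraries, and the gene that was not differed by strain. BAR1, the α-factor protease, was listed at 0 in all MATa libraries, and AGA2, an agglutinin subunit, was listed at 0 in all unstimulated MATα-playing-a libraries. The summed level of these markers was 6609 to 7099 FPKM in stimulated and 3869 to 4774 in unstimulated MATα-playing-a libraries, and 68092 to 80941 in stimulated and 17885 to 22610 in unstimulated MATa libraries. Above 0 thus did not mean alike in level. In stimulated cells MFA2 averaged 152 FPKM in the MATα-playing-a and 17421 in the MATa strain, and ASG7 14.9 and 8127. STE6 averaged 31.9 and 627 in these groups, and AGA2 11.5 and 8718. MFA1, at 4573 FPKM, and STE2, at 1822, made up most of the stimulated MATα-playing-a sum. Only BAR1 was higher in that group than in stimulated MATa cells. Of 4 markers of α cells, STE3, MF(ALPHA)1 and MF(ALPHA)2 were listed at 0 in every MATα-playing-a library, and only the α-agglutinin gene SAG1 was above 0 there. The summed level of the α markers was 4597 to 5595 FPKM in stimulated and 1215 to 1514 in unstimulated MATα-playing-a libraries, and 206 to 240 in stimulated and 196 to 212 in unstimulated MATa libraries. All 4 markers of diploid or sporulating cells were above 0 throughout, at a summed 556 to 640 FPKM in stimulated and 109 to 131 in unstimulated MATα-playing-a libraries, and at 325 to 380 in stimulated and 103 to 110 in unstimulated MATa libraries. SPO11 made most of this difference between treatments. Its mean was 505 FPKM in stimulated and 22.6 in unstimulated MATα-playing-a libraries, and 273 and 22.1 in MATa libraries. The means of IME1 and IME2 were lower in stimulated than in unstimulated libraries of both strains, and that of SPO13 was slightly higher. The part of all these markers in the results below was not tested.

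The pheromone response element, written here as TGAAACA, is the motif bound by Ste12. It was searched on both strands in the 500 bases before the coding start, in the R64 reference from RefSeq, in which all 10 genes have the coordinates that the files give. Only FUS3 and STE7 held it in this window, and the stretches are shown because FUS3 is the member with the largest rise described below and STE7 one that did not pass the test. Of 5880 protein-coding genes tested, 12.1% held at least 1 match and 0.952% held 2 or more. The windows can reach into a neighbouring gene. Each stretch is written 5′ to 3′ along the strand of its gene, with the 7 bases of the match in capitals.
FUS3, match on the gene's strand, first base 156 bases before the coding start, chrII:192284-192312, plus strand: ttacagggcatTGAAACAattgcagaaaa
FUS3, match on the other strand, first base 262 bases before the coding start, chrII:192178-192206, plus strand: agttttagatcTGTTTCAccctggaactc
STE7, match on the gene's strand, first base 332 bases before the coding start, chrIV:172138-172166, plus strand: aagaatgtggaTGAAACAaaactgaatcc
The shorter motif TGAAAC, which the longer one contains, was found at these same genes and at no other member, against 30.5% of all genes. A match describes these letters alone and says nothing of binding.

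With α-factor, the MAP kinase gene FUS3 and the phosphatase genes MSG5 and PTP2 rose in both strains, by folds of 2.76 to 4.04. KSS1, STE50 and STE11 rose by smaller folds, STE20 and PTP3 fell, and the scaffold gene STE5 and the kinase gene STE7 did not pass the test. In MATα-playing-a cells 6 of 10 members were called higher and 2 lower, against 29.8% and 39.1% of the 6608 genes tested. In MATa cells 6 were called higher and 2 lower, against 28.5% and 38.1%. The same 6 genes were higher and the same 2 genes lower in both strains. Most genes of the genome thus changed in these comparisons, and the count of members called is to be read against that. The split over all genes moved with the scaling: 1970 were called higher and 2584 lower in MATα-playing-a cells as deposited, against 2266 and 2206 after rescaling by median ratios, and 1885 higher and 2518 lower in MATa cells, against 2173 and 2159. The median log2 change over the members was 0.32 in MATα-playing-a cells and 0.35 in MATa cells, beside -0.10 and -0.09 over all genes tested. Calls are those of limma on log2(FPKM + 1) with a Benjamini-Hochberg adjusted p below 0.05 over all genes tested, and folds are on that scale. The share of all genes whose treatment groups did not overlap was not counted, so the separations given below for single members are descriptions only. In bulk RNA, fewer cells that express a gene and less RNA of it per cell cannot be told apart.

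**Figure D1:**
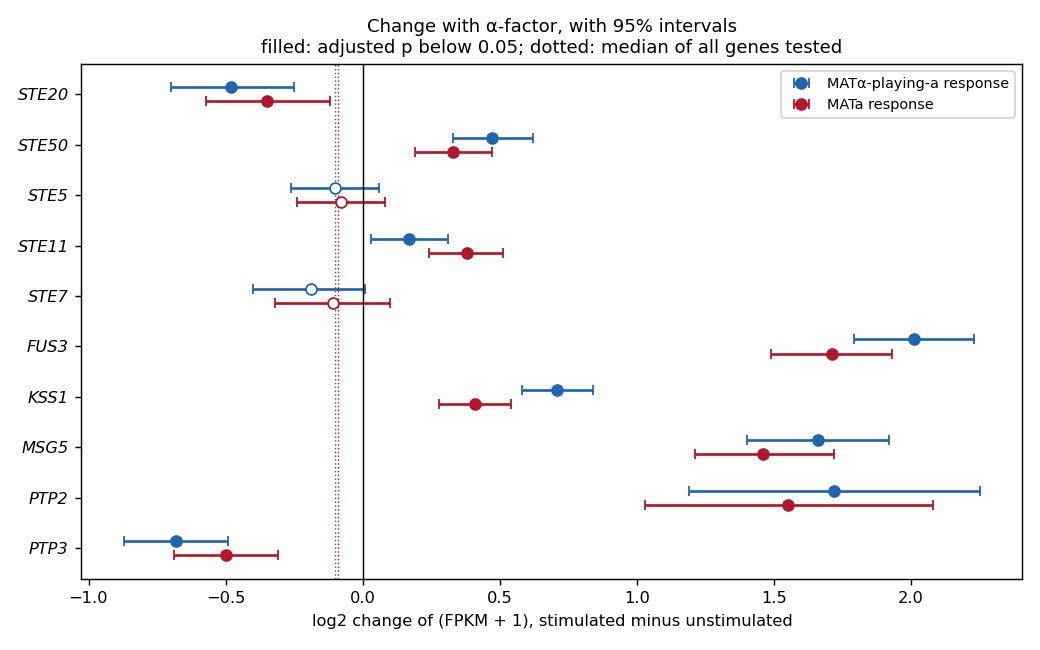
Change of each gene with α-factor on the log2(FPKM + 1) scale (horizontal axis), stimulated minus unstimulated, with 95% intervals from limma, for MATα-playing-a cells (blue) and MATa cells (red); filled points passed the test and dotted lines are the medians of all genes tested. FUS3, MSG5 and PTP2 lie between 1.46 and 2.01, STE5 and STE7 have intervals that reach 0, and STE20 and PTP3 lie below 0.

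The upstream kinase and its partners moved by little and in different directions. STE20 codes for the p21-activated kinase at the head of the cascade and lies on chromosome VIII, 95118 to 97937, on the minus strand. It was at 283.8, 235.5 and 271.3 FPKM in stimulated MATα-playing-a libraries, against 348.2, 392.1 and 358.8 in unstimulated ones. In MATa cells it was at 263.7, 290.0 and 310.0 FPKM in stimulated libraries, against 319.3, 398.6 and 384.2 in unstimulated ones. Every stimulated library was below every unstimulated one of its strain. The log2 change was -0.48 ± 0.10 (SE) in MATα-playing-a cells and -0.35 ± 0.10 in MATa cells (limma adjusted p = 0.00146 and 0.0105). STE20 shares 206 bases with YHL006W-A, listed at 152 to 313 FPKM, and without knowledge of the reads' strand those of that stretch could belong to either gene.

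STE50 (chromosome III, 63441 to 64481, plus strand) codes for the adaptor that binds Ste11. It was at 323.4, 347.7 and 300.8 FPKM in stimulated and 239.9, 224.0 and 234.4 in unstimulated MATα-playing-a libraries. In MATa cells it was at 309.6, 331.5 and 311.2 FPKM in stimulated and 262.5, 245.3 and 248.8 in unstimulated libraries. The groups did not overlap in either strain, and the gene rose 1.39-fold in MATα-playing-a and 1.26-fold in MATa cells (limma adjusted p = 5.64e-05 and 0.000868). STE11, the MAP kinase kinase kinase gene (chromosome XII, 849866 to 852019, plus strand), was at 136.1, 139.1 and 144.6 FPKM in stimulated and 125.6, 130.1 and 117.5 in unstimulated MATα-playing-a libraries. In stimulated MATa libraries it was at 165.7, 153.4 and 152.4 FPKM, against 122.6, 120.1 and 119.4 in unstimulated ones. The groups did not overlap, but the gap was narrow in MATα-playing-a cells, where the rise was 1.12-fold (95% interval 1.02 to 1.24, limma adjusted p = 0.0304), against 1.30-fold in MATa cells (1.18 to 1.43, adjusted p = 0.000234). The call in MATα-playing-a cells was lost without stimulated replicate 2 or 3 or without unstimulated replicate 1 or 3 (limma adjusted p = 0.0503, 0.0981, 0.0531 and 0.122, within a range of 0.00313 to 0.122 over its 23 alternatives). It was also lost in the fit with each culture, taken as strain and replicate number, as a block (limma adjusted p = 0.0692).

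STE5, which codes for the scaffold that holds Ste11, Ste7 and Fus3 together, lies on chromosome IV, 658350 to 661103, on the plus strand. It was at 159.2, 152.5 and 159.7 FPKM in stimulated and 156.5, 179.2 and 169.1 in unstimulated MATα-playing-a libraries, and at 170.4, 163.3 and 177.9 in stimulated and 166.1, 188.2 and 187.1 in unstimulated MATa libraries. The groups overlapped in both strains. The log2 change was -0.10 (95% interval -0.26 to 0.06) in MATα-playing-a and -0.08 (-0.24 to 0.08) in MATa cells, so that a 2-fold change in either direction lies far outside both intervals. STE7, the MAP kinase kinase gene (chromosome IV, 172481 to 174028, plus strand), was at 149.1, 122.8 and 150.1 FPKM in stimulated and 154.8, 166.8 and 160.0 in unstimulated MATα-playing-a libraries. In MATa cells it was at 134.5, 136.4 and 151.8 FPKM in stimulated and 152.6, 138.5 and 165.9 in unstimulated libraries. Stimulated libraries were all lower than unstimulated ones in MATα-playing-a cells and overlapped with them in MATa cells. The change did not pass in either strain (log2 change -0.19, 95% interval -0.40 to 0.01, limma adjusted p = 0.0883 in MATα-playing-a cells and -0.11, -0.32 to 0.10, adjusted p = 0.328 in MATa cells). STE7 shares 177 bases with YDL159C-B and 163 with YDL158C, listed at 55.5 to 97.9 and 91.8 to 185 FPKM, so part of its reads may belong to them.

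**Figure D2:**
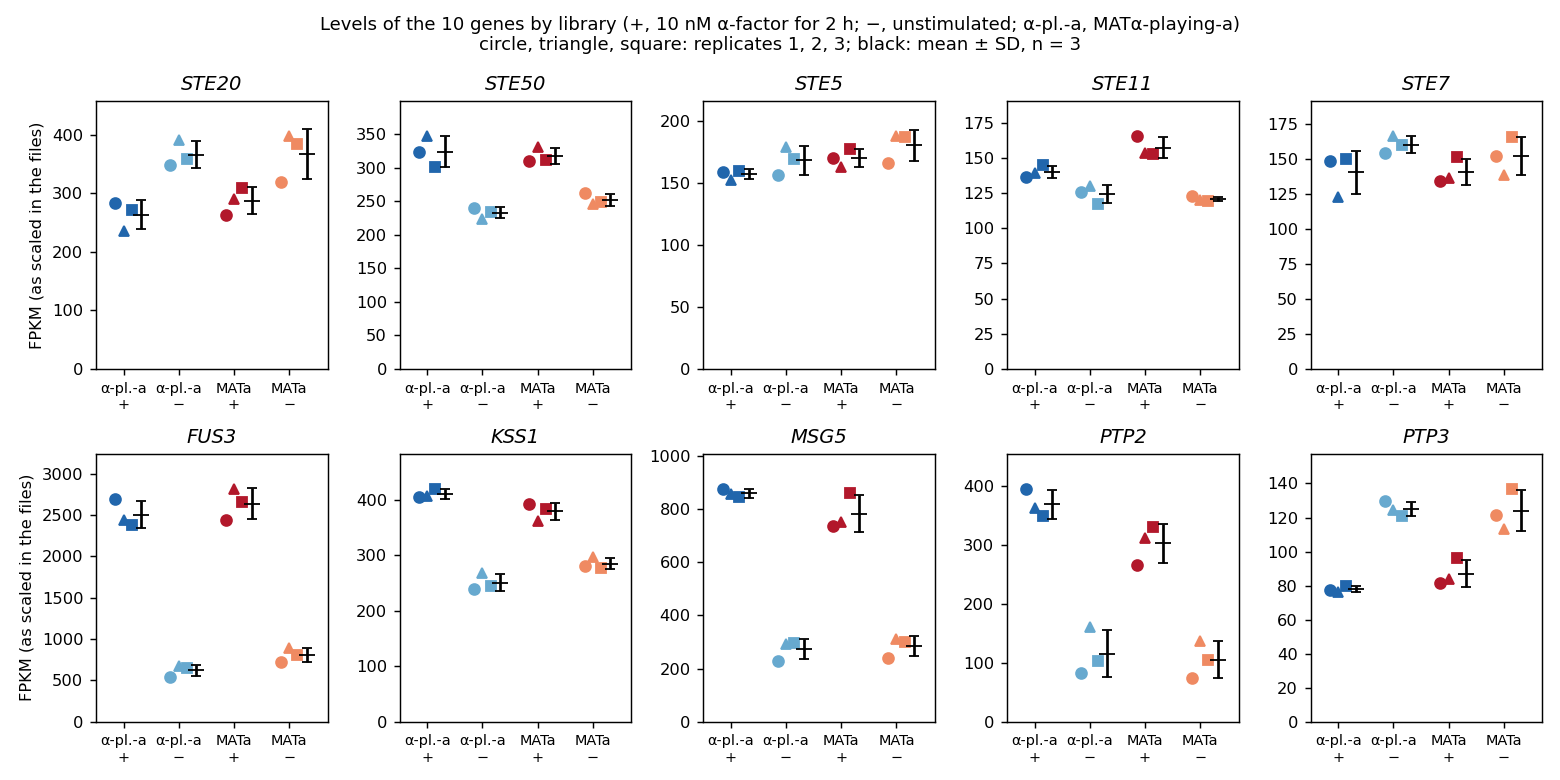
Level of each of the 10 genes (vertical axes, FPKM, each from 0) in the 12 libraries, by strain and treatment, with replicates as circles, triangles and squares and the mean ± SD of 3 libraries in black. Stimulated libraries are apart from unstimulated ones for FUS3, KSS1, MSG5, PTP2, STE50, STE11, STE20 and PTP3 in both strains, and groups overlap for STE5 in both and for STE7 in MATa cells. The share of all genes with such separation was not counted.

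The MAP kinase genes both rose, FUS3 by more than KSS1. FUS3, which codes for the MAP kinase dedicated to mating, lies on chromosome II, 192451 to 193512, on the plus strand. It was at 2691.1, 2438.2 and 2382.6 FPKM in stimulated MATα-playing-a libraries, against 542.3, 669.0 and 650.9 in unstimulated ones. In MATa cells it was at 2441.4, 2818.5 and 2654.6 FPKM in stimulated libraries, against 726.1, 891.7 and 810.4 in unstimulated ones. The lowest stimulated library was far above the highest unstimulated one in both strains. The rise was 4.04-fold in MATα-playing-a cells (log2 change 2.01 ± 0.10, limma adjusted p = 1.75e-08) and 3.26-fold in MATa cells (1.71 ± 0.10, adjusted p = 6.93e-08). FUS3 thereby stood at the 94.5th percentile of levels among genes tested in stimulated and at the 78.6th in unstimulated MATα-playing-a cells, and at the 94.8th in stimulated and the 82.7th in unstimulated MATa cells.

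KSS1, which codes for the MAP kinase of filamentous growth that also responds in mating, lies on chromosome VII, 575398 to 576504, on the plus strand. It was at 405.4, 406.9 and 420.6 FPKM in stimulated and 239.6, 269.0 and 244.4 in unstimulated MATα-playing-a libraries. Its level in MATa cells was 392.4, 362.9 and 383.5 FPKM in stimulated and 281.6, 297.5 and 277.1 in unstimulated libraries. Groups did not overlap, and the rise was 1.64-fold in MATα-playing-a and 1.33-fold in MATa cells (limma adjusted p = 1.35e-06 and 0.000106). FUS3 and KSS1 are paralogs whose coding sequences are identical at 64% of 1022 aligned bases. They share no exact run longer than 12 bases, so a longer read would not match both exactly. How reads were assigned between them was not tested.

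The phosphatase genes went in opposite directions. MSG5 (chromosome XIV, 529942 to 531411, plus strand) was at 877.4, 858.8 and 844.5 FPKM in stimulated and 229.8, 294.4 and 295.1 in unstimulated MATα-playing-a libraries. Its level in MATa cells was 735.6, 752.1 and 861.6 FPKM in stimulated and 241.3, 310.9 and 301.5 in unstimulated libraries. All stimulated libraries were above all unstimulated ones, with rises of 3.16-fold in MATα-playing-a and 2.76-fold in MATa cells (limma adjusted p = 2.91e-07 and 7.88e-07). PTP2 (chromosome XV, 733925 to 736177, plus strand) codes for a tyrosine phosphatase best known for acting on the stress kinase Hog1. It was at 396.4, 363.5 and 349.0 FPKM in stimulated and 83.6, 161.4 and 102.6 in unstimulated MATα-playing-a libraries, and at 265.8, 313.1 and 330.7 in stimulated and 74.5, 137.0 and 104.3 in unstimulated MATa libraries. It rose 3.29-fold in MATα-playing-a cells (95% interval 2.28 to 4.74, limma adjusted p = 6.21e-05) and 2.94-fold in MATa cells (2.04 to 4.23, adjusted p = 0.00014). PTP2 was the most variable member without pheromone, with a coefficient of variation of 35.0% in unstimulated MATα-playing-a and 29.7% in unstimulated MATa libraries, against 6.57% and 11.1% in the stimulated libraries of these strains.

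PTP3 (chromosome V, 308413 to 311199, minus strand) codes for the tyrosine phosphatase best known for acting on Fus3. It was at 77.5, 76.2 and 79.7 FPKM in stimulated and 129.6, 124.6 and 121.1 in unstimulated MATα-playing-a libraries. Its level in MATa cells was 81.3, 83.6 and 96.1 FPKM in stimulated and 121.3, 113.3 and 137.0 in unstimulated libraries. No stimulated library reached the lowest unstimulated one. The log2 change was -0.68 ± 0.09 in MATα-playing-a and -0.50 ± 0.09 in MATa cells (limma adjusted p = 3.02e-05 and 0.000314), relative to a median over all genes of -0.10 and -0.09. The coding sequences of PTP2 and PTP3 are identical at 62% of 2169 aligned bases, and their longest shared exact run is 12 bases.

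Levels per length can be set against each other within a library. A common scaling factor of the library alters such a ratio only through the 1 added to each FPKM. Ratios given below as times are those of FPKM + 1. The difference of log2(FPKM + 1) between FUS3 and KSS1 was 2.60 ± 0.12 in stimulated and 1.30 ± 0.12 in unstimulated MATα-playing-a cells (SD, n = 3 each), which puts FUS3 at 5.65 to 6.62 times KSS1 with pheromone and at 2.26 to 2.66 times without. In MATa cells the difference was 2.79 ± 0.16 in stimulated and 1.50 ± 0.12 in unstimulated libraries. The change of this ratio, a factor of 2.47 in MATα-playing-a and 2.45 in MATa cells, was larger than the spread between replicates, and the groups did not overlap. The scaffold gene stood lower against the kinase gene with pheromone: STE5 minus FUS3 was -3.98 ± 0.09 in stimulated and -1.87 ± 0.08 in unstimulated MATα-playing-a libraries, and -3.94 ± 0.14 in stimulated and -2.16 ± 0.07 in unstimulated MATa libraries. STE5 was 0.0595 to 0.0674 times FUS3 in stimulated and 0.261 to 0.29 times in unstimulated MATα-playing-a libraries.

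MSG5 stayed closer to FUS3. MSG5 minus FUS3 was -1.54 ± 0.07 in stimulated and -1.19 ± 0.05 in unstimulated MATα-playing-a libraries, and -1.75 ± 0.14 in stimulated and -1.51 ± 0.08 in unstimulated MATa libraries. The tyrosine phosphatase genes stood in the opposite order on average: PTP3 minus PTP2 was -2.23 ± 0.11 in stimulated and 0.16 ± 0.50 in unstimulated MATα-playing-a libraries, and -1.79 ± 0.10 in stimulated and 0.27 ± 0.50 in unstimulated MATa libraries. In replicate 2 of both unstimulated groups PTP2 was already above PTP3, and in the other unstimulated libraries it was below. STE5 minus STE11 was 0.17 ± 0.05 in stimulated and 0.43 ± 0.11 in unstimulated MATα-playing-a libraries, and 0.12 ± 0.09 in stimulated and 0.57 ± 0.12 in unstimulated MATa libraries. STE5 minus STE7 overlapped between treatments in both strains, with a difference of 0.10 in MATα-playing-a and 0.03 in MATa cells. STE50 minus STE11 was 1.20 ± 0.14 in stimulated and 0.90 ± 0.11 in unstimulated MATα-playing-a libraries without overlap, and 1.01 ± 0.10 in stimulated and 1.06 ± 0.03 in unstimulated MATa libraries with overlap. With 3 libraries against 3 the 2-sided exact permutation test cannot go below p = 0.1; of the 14 tests of 7 ratios, those without overlap gave that value (Benjamini-Hochberg adjusted p = 0.127), so none can pass a threshold of 0.05.

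**Figure D3:**
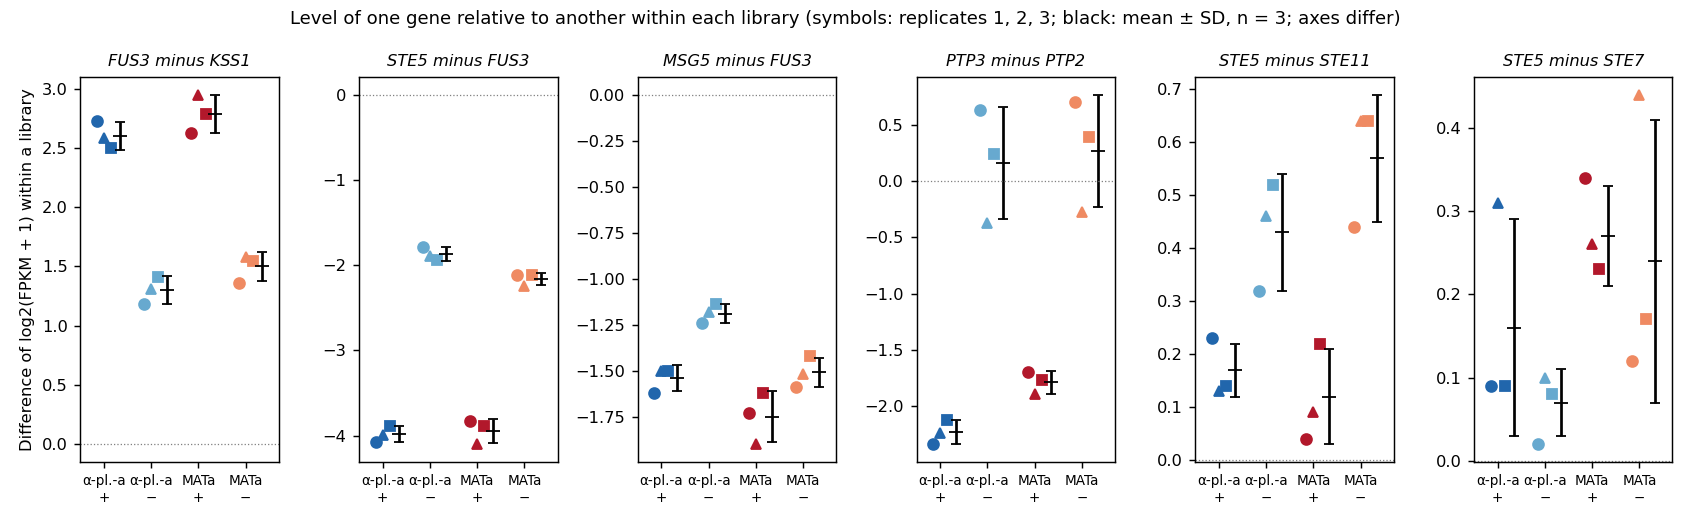
Difference of log2(FPKM + 1) between 2 genes within each library (vertical axes, which differ between panels), by strain and treatment, with the mean ± SD of 3 libraries in black and a dotted line at 0. FUS3 minus KSS1 lies at 2.60 and 2.79 on average in stimulated libraries and at 1.30 and 1.50 in unstimulated ones, and PTP3 minus PTP2 lies at -1.70 or below in each stimulated library.

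The summed level of the 10 genes was 5248 ± 218 FPKM in stimulated and 2438 ± 181 in unstimulated MATα-playing-a cells, and 5265 ± 264 in stimulated and 2682 ± 192 in unstimulated MATa cells (SD, n = 3 each). FUS3 alone held 47.7% ± 1.12 of this sum in stimulated and 25.4% ± 1.21 in unstimulated MATα-playing-a cells, and 50.1% ± 1.77 in stimulated and 30.1% ± 1.1 in unstimulated MATa cells. FUS3, MSG5 and PTP2 together held 71.1% in stimulated and 41.3% in unstimulated MATα-playing-a cells. Without FUS3 the sum was 2744 ± 56.4 FPKM in stimulated and 1818 ± 118 in unstimulated MATα-playing-a cells, and 2627 ± 133 in stimulated and 1872 ± 113 in unstimulated MATa cells. Groups did not overlap for any of these sums and shares.

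**Figure D4:**
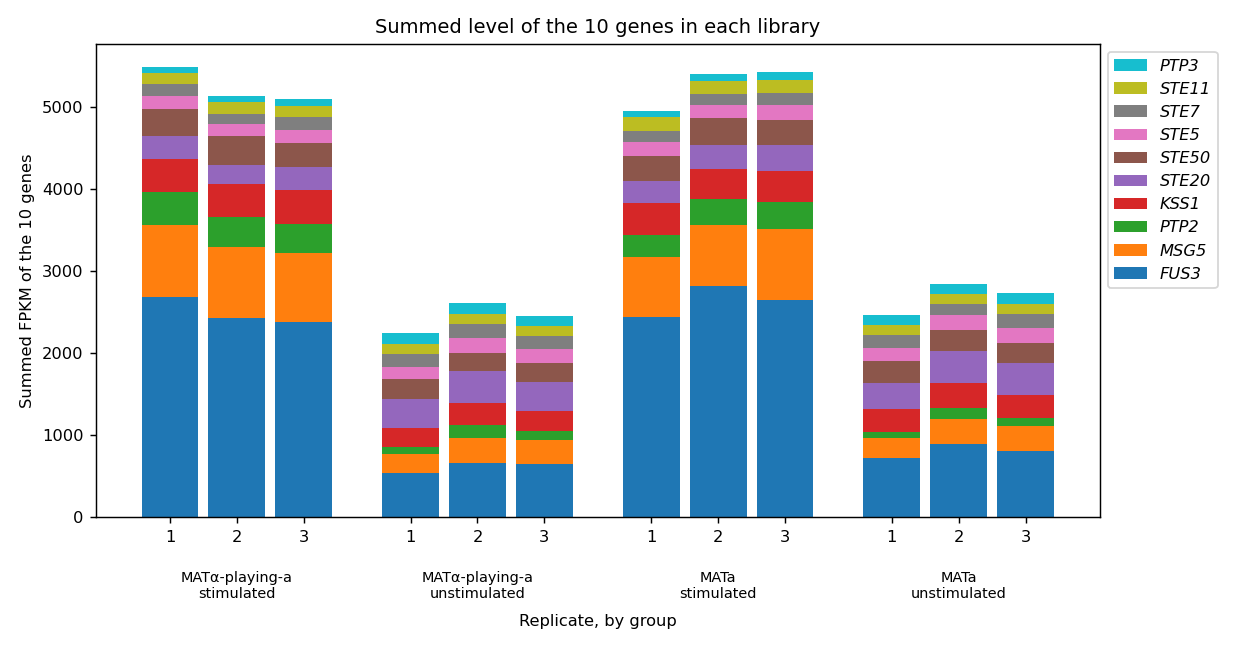
Summed FPKM of the 10 genes in each of the 12 libraries (vertical axis, from 0), stacked by gene, with replicates 1 to 3 by group along the horizontal axis. Sums run from 4960 to 5499 in the 6 stimulated libraries and from 2250 to 2841 in the 6 unstimulated ones, and FUS3 is the lowest and tallest block in each bar.

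FUS3 had the highest level of the members in every group. With pheromone it was followed by MSG5 and KSS1 in both strains, each step being wider than the range of the replicates. Next came PTP2, STE50 and STE20, at 370, 324 and 264 FPKM in stimulated MATα-playing-a cells without overlap between neighbours, and at 303, 317 and 288 in stimulated MATa cells, where these neighbours overlapped. STE5, STE7 and STE11 stood lower, at 157, 141 and 140 FPKM in stimulated MATα-playing-a cells and at 171, 141 and 157 in stimulated MATa cells, and PTP3 was lowest, at 77.8 and 87.0 FPKM. Without pheromone STE20 stood second, at 366 FPKM in unstimulated MATα-playing-a and 367 in unstimulated MATa cells. MSG5, KSS1 and STE50 then followed in MATα-playing-a cells at 273, 251 and 233 FPKM with overlapping ranges between neighbours. In unstimulated MATa cells MSG5 and KSS1 overlapped at 285 FPKM each, MSG5 overlapped with STE50, and PTP3, STE11 and PTP2 formed an overlapping tail at 124, 121 and 105 FPKM. By group means PTP2 was lowest of all members without pheromone and in the middle of them with it, but without pheromone its range overlapped with that of STE11 in both strains, and in replicate 2 of each strain it was above both STE11 and PTP3.

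Between the strains no member passed the test. Without α-factor 0 of 10 members were called in MATα-playing-a against MATa cells, beside 0.953% of genes tested; 2 members had an unadjusted limma p below 0.05, beside 825 of 6608 genes. These were FUS3, with a log2 difference of -0.38 (95% interval -0.60 to -0.16, adjusted p = 0.157), and KSS1, with -0.19 (-0.32 to -0.05, adjusted p = 0.269). Each MATα-playing-a library was below each MATa library without pheromone for these genes and for STE50. With α-factor 0 of 10 members were called, beside 2.21% of genes tested, and 1 had an unadjusted p below 0.05, beside 744 of all genes. This was STE11, with a log2 difference of -0.17 (-0.30 to -0.03, limma adjusted p = 0.314). The strains did not overlap with α-factor for 5 members: KSS1 and PTP2 were higher in each MATα-playing-a library, and STE11, STE5 and PTP3 were lower. The share of all genes without such overlap was not counted, with or without α-factor. No strain difference is therefore read from these separations. With α-factor FUS3 overlapped between strains, with a log2 difference of -0.07 (-0.29 to 0.15).

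The response itself was compared between strains as MATα-playing-a minus MATa, and 0 of 10 members were called, beside 0.484% of genes tested. Unadjusted p was below 0.05 for 2 members, beside 771 of all genes. KSS1 had a log2 difference of responses of 0.30 (95% interval 0.11 to 0.49, limma adjusted p = 0.243) and STE11 of -0.21 (-0.40 to -0.01, adjusted p = 0.406). FUS3 had 0.31 (-0.00 to 0.62, adjusted p = 0.425), MSG5 0.20 (-0.17 to 0.56) and PTP2 0.16 (-0.58 to 0.91). These intervals leave room for sizeable differences in PTP2 and for none in all but KSS1 and STE11, and a missed threshold does not show that the strains respond alike.

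Other genes of the mating pathway and of neighbouring MAP kinase cascades were counted from lists, whose counts are to be read against the 29.8% of all genes called higher and 39.1% called lower in the MATα-playing-a strain, and 28.5% and 38.1% in the MATa strain. Of 14 pathway genes outside the cascade, 8 were called higher and 2 lower in the MATα-playing-a strain, and 10 higher and 1 lower in the MATa strain, with median log2 changes of 1.03 and 0.82. DIG2, a repressor of Ste12, rose to 798 ± 36.6 FPKM in stimulated MATα-playing-a cells, against 122 ± 5.34 in unstimulated ones (limma adjusted p = 5.80e-09). SST2, which speeds up inactivation of the G protein, rose 4.19-fold in MATα-playing-a and 4.17-fold in MATa cells, and the transcription factor gene TEC1 3.71-fold and 3.43-fold. The difference of responses was called for 0 of 14, and the genes called between strains were STE2 and STE3 without pheromone and STE2, STE3 and STE4 with it. STE2 was at 1822 ± 151 FPKM in stimulated MATα-playing-a cells, against 8241 ± 417 in stimulated MATa cells. For each of the 10 members of the cascade, the log2 difference between these groups lay between -0.17 and 0.29. The limma intervals of these differences reached from -0.35 to 0.82, so the members were not shown to be alike between strains. STE4, the Gβ gene, was at 791 ± 24.5 FPKM in stimulated MATα-playing-a and 995 ± 15.3 in stimulated MATa cells (limma adjusted p = 0.00479). STE3, the a-factor receptor gene, was listed at 0 in MATα-playing-a cells and averaged 19.7 FPKM in stimulated and 10.7 in unstimulated MATa cells.

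Of 14 genes of the cell wall integrity cascade, 7 were called higher and 3 lower in the MATα-playing-a strain, and 8 higher and 3 lower in the MATa strain, with medians of 0.23 and 0.43. Its MAP kinase gene SLT2 was close to FUS3 in level and change, at 2776 ± 165 FPKM in stimulated and 718 ± 213 in unstimulated MATα-playing-a cells, and at 2487 ± 63.1 in stimulated and 744 ± 297 in unstimulated MATa cells (limma adjusted p = 1.94e-05 and 4.26e-05). MID2, a sensor of the cell wall, rose 2.85-fold in MATα-playing-a and 3.00-fold in MATa cells, and KDX1, a kinase gene related to SLT2, 2.41-fold and 2.11-fold. KDX1 was also the 1 gene of this list called between strains, at 345 ± 25.3 FPKM in stimulated MATα-playing-a and 214 ± 8.89 in stimulated MATa cells (limma adjusted p = 0.00298). Of 11 genes of the osmotic stress cascade, 3 were called higher and 5 lower in the MATα-playing-a strain, and 2 higher and 4 lower in the MATa strain, with medians of -0.15 and 0.10; these counts are near the share over all genes. SSK1, its response regulator, rose 2.22-fold and 2.14-fold, OPY2, a membrane anchor of Ste50, 1.67-fold and 1.71-fold, and MSB2, a signalling mucin, had log2 changes of -0.60 and -0.59. HOG1, its MAP kinase gene, named as the counterpart of FUS3 after its values were seen, was at 817 ± 70.7 FPKM in stimulated and 1086 ± 22.0 in unstimulated MATα-playing-a cells, and at 808 ± 61.1 in stimulated and 1175 ± 67 in unstimulated MATa cells (limma adjusted p = 0.00057 and 8.08e-05). FUS3 was thus below HOG1 in each unstimulated library and above it in each stimulated one.

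Other kinases of the Ste20 group did not rise: of CLA4, SKM1, KIC1 and SPS1, 2 fell in MATα-playing-a cells (CLA4 and SKM1, log2 changes -0.41 and -0.34) and none passed in MATa cells, beside -0.48 and -0.35 for STE20. Of 10 other phosphatase genes 4 were called higher and 4 lower in the MATα-playing-a strain, and 3 higher and 3 lower in the MATa strain, with medians of -0.18 and 0.03; these counts too are near the share over all genes. YVH1, a dual-specificity phosphatase gene, was at 392 ± 25.1 FPKM in stimulated and 848 ± 98.7 in unstimulated MATα-playing-a cells, and at 377 ± 18.4 in stimulated and 848 ± 15.9 in unstimulated MATa cells. SDP1, the paralog of MSG5 that acts on Slt2, rose 1.91-fold in MATα-playing-a and 1.97-fold in MATa cells but stayed low, at 64 and 58.7 FPKM in stimulated cells. PTP1, another tyrosine phosphatase gene, rose 1.90-fold and 1.50-fold. SMK1, the MAP kinase gene of sporulation, had log2 changes of -0.34 in MATα-playing-a cells, where it passed, and -0.15 in MATa cells, where it did not. Among the MAP kinase kinase kinase genes, compared after their values were seen, STE11 had a higher level, with 140 FPKM in stimulated MATα-playing-a cells, than SSK22 (87.4), SSK2 (57.9) and BCK1 (37.3).

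The genes closest in pattern over the 12 libraries were found by the root mean square difference of centred log2(FPKM + 1) among 6410 other genes with a mean of at least 10 FPKM. For FUS3 they were PEP4, a vacuolar protease gene (0.126), UBI4, a polyubiquitin gene (0.128), GPP2, a glycerol phosphatase gene (0.131), YBL100W-B (0.159) and YMR046W-A (0.163). For KSS1 they were SNX4, a sorting nexin gene (0.061), BGL2, a cell wall glucanase gene (0.074), RIM101, a transcription factor gene (0.082), MDM12 (0.083) and EMP47 (0.084). For MSG5 the closest was MID2, the cell wall sensor gene (0.092), followed by JIP3 (0.131), YNL115C (0.134), ERG24, a sterol synthesis gene (0.138), and FAR1, the cell cycle arrest gene of the pheromone response (0.148). MID2 rose by 1.51 on the log2 scale in MATα-playing-a and by 1.58 in MATa cells, beside 1.66 and 1.46 for MSG5. MID2 was picked for its likeness to MSG5 over these same libraries, so the nearness of these changes restates that choice. JIP3 (YLR331C) and MID2 (YLR332W) have adjacent gene IDs and were not checked for overlap. Their values may therefore not be independent of each other.

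PTP2 was looked at in the same way after its values were seen. The closest genes were JIP3 (0.199), SLT2 (0.205), MSG5 (0.209), YPS3 (0.211) and MID2 (0.228), with JIP3 and MID2 again not checked for overlap. The levels of SLT2 are given beside those of PTP2 as a description. SLT2 was at 559, 960 and 634 FPKM in unstimulated MATα-playing-a replicates 1, 2 and 3, where PTP2 was at 83.6, 161.4 and 102.6. In unstimulated MATa replicates 1, 2 and 3 SLT2 was at 557, 1087 and 588 FPKM, where PTP2 was at 74.5, 137.0 and 104.3. Both genes were highest in replicate 2 and lowest in replicate 1 of each strain. This order was not particular to them: among the members STE20, STE5 and FUS3 also had it in both unstimulated groups, and so did MID2. SLT2 was picked for its likeness to PTP2 over these same libraries, so the match restates that choice. The labels do not say what replicates of the same number share.

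**Figure D5:**
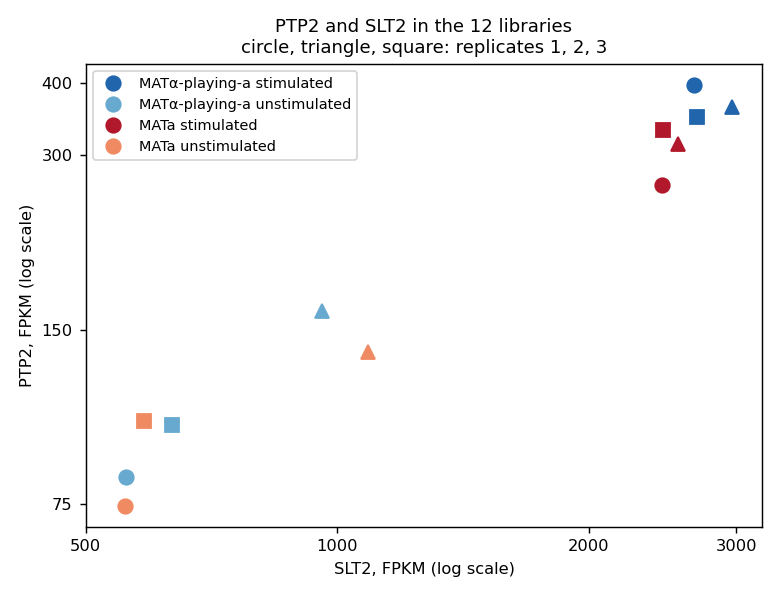
PTP2 against SLT2 in the 12 libraries, both in FPKM on log axes, with groups by colour and replicates as circles, triangles and squares. In the unstimulated groups of both strains the triangles (replicate 2) are highest for both genes, and the stimulated libraries lie between 2448 and 2966 FPKM of SLT2.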

How the data were processed

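RNA was extracted with hot acid phenol and all 12 libraries shared a sequencing lane, per the labels' protocols. Each library has a table that the authors deposited, holding FPKM per gene. CASAVA 1.8.2, TopHat 1.1.4 and also Cufflinks 0.9.3 are listed in the submitters' processing notes; the genome build is not given in the sources used here. R64 locus tags were found for 6048 gene IDs, and 6036 of these had its coordinates. FPKM times gene length summed to between 5.02 and 6.22 times what the unit permits, a scaling not explained in the files. Low values showed no common step of whole reads, so depth is unknown.

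Values entered as log2(FPKM + 1), as deposited, after genes averaging under 1 FPKM over the 12 libraries were left out, which kept 6608. limma 3.58.1 in R 4.3.3 (lmFit, eBayes with trend) fitted the 4 group means, and p-values were adjusted over all genes tested. The script was tested on simulated data. Alignments of coding sequences used Biopython 1.88. The members, gene lists and ratios were chosen with earlier results of these data known. All members were named, and from each list up to 3 genes per comparison with the largest called change, if any group averaged 10 FPKM or more; for likeness, the 5 closest genes. Alternatives were other pseudocounts (0.1 and 10), filters, scalings, blocks, no trend, fits to the compared libraries alone and each library left out. P-values measure the spread between the biological replicates that the labels name.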

Additional observations from a re-analysis of the deposited data

How the results depend on the processing

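The counts of members called were stable over all 112 recomputed counts. They were 8 in MATa cells throughout, 7 or 8 in MATα-playing-a cells, and 0 under each alternative for both strain differences and the difference of responses. Of 1120 recomputed changes of single members, 1113 kept their side of the threshold; the other 7 were STE11 in MATα-playing-a cells, which kept its direction (log2 change 0.13 to 0.27) and lost its call in 7 of 23 alternatives. Beside the 4 libraries named above, these were the fit to the compared libraries alone (adjusted p = 0.0761), the replicate block by culture (0.0692) and leaving out all 4 libraries numbered 1 (0.0931), an alternative chosen after seeing the data. With the replicate number as a block over all libraries (replicate block), 8 members were called in each strain. Leaving out a library outside a comparison left the log2 changes of that comparison as they were and altered mainly the shared spread. Such alternatives are included in the totals above and tested little. Whether equal numbers mark a shared culture is not stated in the labels and was not settled by the data: deviations from the group means correlated at -0.28 to 0.27 between libraries of the same number and at -0.32 to 0.32 between those of other numbers, and 4 of 12 libraries were closest to their own number in the other treatment of their strain. Rescaling by median ratios brought the median log2 change of all genes to -0.00 in MATα-playing-a and -0.01 in MATa cells. Precision rests on 3 libraries a group, and without counts the counting error of each value is unknown.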
